A study of Oryctolagus cuniculus with 15 samples.

Results

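Rabbit corneal keratocytes embedded at 100k cells per matrix (3DF) were compared with the same cells embedded at 50k cells per matrix (3DF_50), with 3 RNA-seq libraries in each group, so that 6 of the 15 libraries of the series entered the comparison. These libraries were selected by their labelled culture condition. The keratocytes were primary cells at first passage, kept for 6 days in serum-free media within fibrillar matrices of bovine type I collagen. Several matrices were pooled for each library, and in both groups the cells were freed from the collagen in digestion media before lysis, so the digestion step was common to the 2 groups and only the number of cells per matrix was set to differ. Replicates came from separate experiments by the account in the methods. The library names carry the prefixes E6, E7 and E8 in 3DF and E3, E5 and E7 in 3DF_50, and neither the labels nor the paper say what a prefix stands for, and within the 6 libraries E7 alone occurs at both densities. Some prefixes recur in the other conditions, which allowed a fit of all 5 conditions with the prefix as a block.

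Keratocytes are the resident cells of the corneal stroma. They secrete the fibrillar collagens and the small leucine-rich proteoglycans that keep the collagen fibrils thin and evenly spaced, and they stay quiescent in serum-free culture. In a collagen matrix they extend dendritic processes, touch their neighbors and exchange secreted factors, so that the number of cells per matrix sets both the distance between cells and the amount of secreted product around them. The comparison asks how the transcriptional profile differs between the densities. Since only prefix E7 occurs at both, a difference by density cannot be fully told apart from one by prefix.

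Markers of keratocytes were abundant in every library. All 10 of them in the table were tested, and their summed level was 29401 to 43698 FPKM in 3DF and 21847 to 25067 FPKM in 3DF_50. Epithelial markers of the cornea were much lower and were uneven. Tests were possible for 10 of the 23 listed. With all 6 libraries 0 of them passed the limits given below for a DEG, by edgeR or DESeq2. Of the 10, 6 lay higher in 3DF without overlap, as did 16.8% of all genes tested. The sum over the 23 was 15.4 to 23.2 FPKM in 3DF and 1.26, 1.39 and 12.4 FPKM in the 3DF_50 libraries, with the highest of these in the E7 library. KRT4 was at 0 throughout, and KRT12 was at 0 in replicates 1 and 2 of 3DF_50. Markers of leukocytes summed to 4.30 to 6.18 FPKM over all 6 libraries without a split by density, while those of vascular endothelium were 194 to 211 FPKM in 3DF and 126 to 150.4 FPKM in 3DF_50. Most of that difference lay in KDR, a VEGF receptor, at 112 to 115 FPKM against 46.2 to 72.2 FPKM. ERG, EMCN and CDH5 overlapped between the groups, and PECAM1, CLDN5 and FLT1 were at or near 0. The corneal endothelial list summed to 159 to 218 FPKM against 89.3 to 115 FPKM. Its largest part was COL8A2, a collagen chain, at 92.0 to 157 FPKM against 66.5 to 79.9 FPKM. Of its 7 genes 5 lay higher in 3DF without overlap, as did 16.8% of all genes tested, and SLC4A11 and CDH2 overlapped at 0.117 to 1.28 FPKM. The melanocyte list summed to 3.50 to 5.24 FPKM against 2.12 to 2.56 FPKM, while Schwann cell markers overlapped between the groups. ACTA2, the actin of myofibroblasts, had 0.0666 to 0.268 FPKM over all 6 libraries. The part of other cell types in the results below was not tested, and in these bulk libraries fewer cells of a type cannot be told apart from less RNA per cell.

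The libraries held 18770056 to 24224540 counted reads in 3DF and 14626982 to 16472547 in 3DF_50, so every 3DF library was deeper than every 3DF_50 library. Thinning the counts to the smallest library left 66 DEGs, 59 of them among the 60 described next. In log2(FPKM + 1) over 18894 genes the groups took 37.4% of the sum of squares (exact permutation test over 10 splits, p = 0.1, the smallest these splits can give). The mean distance between libraries of the different groups was 45.4, beside 41.8 within 3DF and 33.1 within 3DF_50. 3DF replicate 1 stood apart from the other 5 libraries. It lay at 39.5 on the first principal component, where the other 3DF libraries lay at 2.78 and 4.01 and the 3DF_50 libraries between -19.6 and -10.8, and the sample weight that limma's voom gave it was 0.143, against 0.757 to 2.19 for the others.

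Between 3DF and 3DF_50, 13285 genes were tested and 60 (0.452%) were DEGs, here an adjusted p of at most 0.05 by edgeR and an absolute log2 fold change at or above 1. The 42 genes higher in 3DF (0.316%) included genes of matrix, adhesion and secreted signals, and the 18 lower genes (0.135%) were mostly of low abundance. The higher genes had a median log2 fold change of 1.23 and a median level of 5.88 FPKM in 3DF against 2.29 FPKM in 3DF_50. For the lower genes the median was -2.14, at 0.402 FPKM against 1.88 FPKM, and 6 of the 18 stayed under 1 FPKM in both groups. Of the lower genes 13 changed by more than 2 on the log2 scale, and of the higher genes 2 did. The ranges of the groups did not overlap for any of the 60, a condition that 16.8% of all genes tested met with 3DF higher and 12.6% with 3DF lower. At any fold 82 genes (0.617%) passed the adjusted p, and the 22 of these below the fold limit had 18 higher members, and 2660 genes (20%) had an unadjusted p under 0.05. With all 5 conditions in the fit and the prefix as a block, 10 genes (0.0712%) were DEGs. They held 6 of the 60, namely NEGR1, ASTN1, PRSS23, FNDC1, LOC103347471 and LOC103350987. In that fit all 60 kept their direction with an unadjusted p under 0.05, and 51 stayed at or beyond the fold limit. The 60 had been picked from libraries that this fit also used, so this is no independent check.

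Among DEGs that averaged at least 1 FPKM, the largest increases were in genes of cell adhesion that are best known from the nervous system. NEGR1, a membrane-anchored immunoglobulin-type adhesion protein (chromosome 13, 93665883 to 94608231 in oryCun2), had 3.53, 3.28 and 2.91 FPKM in the 3DF libraries and 0.667, 0.744 and 0.825 FPKM in the 3DF_50 libraries. The libraries of each group lay close together and far from those of the other, and the log2 fold change, given here and below ± SE, was 2.09 ± 0.21 (adjusted p = 0.0143 by edgeR). ASTN1, astrotactin, a neuronal adhesion protein (chromosome 13, 3925036 to 4261575), had 5.50, 4.96 and 4.82 FPKM in 3DF and 1.63, 0.591 and 1.59 FPKM in 3DF_50, a log2 fold change of 1.98 ± 0.31 (adjusted p = 0.033 by edgeR). Its low value in 3DF_50 replicate 2 widened the spread of that group. PLXNC1, a receptor for semaphorins (chromosome 4, 73487978 to 73644654), had 2.03, 1.49 and 1.92 FPKM against 0.476, 0.256 and 0.697 FPKM, and LSAMP, a relative of NEGR1 (chromosome 14, 102534043 to 103198074), had 28.9, 22.5 and 23.8 FPKM against 10.3, 6.27 and 9.95 FPKM. Their log2 fold changes were 1.90 ± 0.32 (adjusted p = 0.0393 by edgeR) and 1.48 ± 0.19 (adjusted p = 0.0317 by edgeR). SLIT1, a secreted guidance ligand, was also a DEG but stayed at 0.425 to 0.584 FPKM in 3DF and 0.139 to 0.179 FPKM in 3DF_50. Together 5 of the 56 tested genes of neural adhesion and axon guidance were DEGs, all higher in 3DF, as were 0.316% of all genes tested. ROBO1, a receptor of the Slit ligands, passed the adjusted p at a log2 fold change of 0.84 (edgeR adjusted p = 0.0445). The median log2 fold change of the list was 0.29, beside 0.013 for all genes tested. Without overlap between the groups 24 of the 56 lay higher and 4 lower, where 16.8% and 12.6% of all genes tested did so. This list, like the other gene lists, was chosen with earlier results of these data known. Its counts are therefore no independent evidence for the class.

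**Figure D1:**
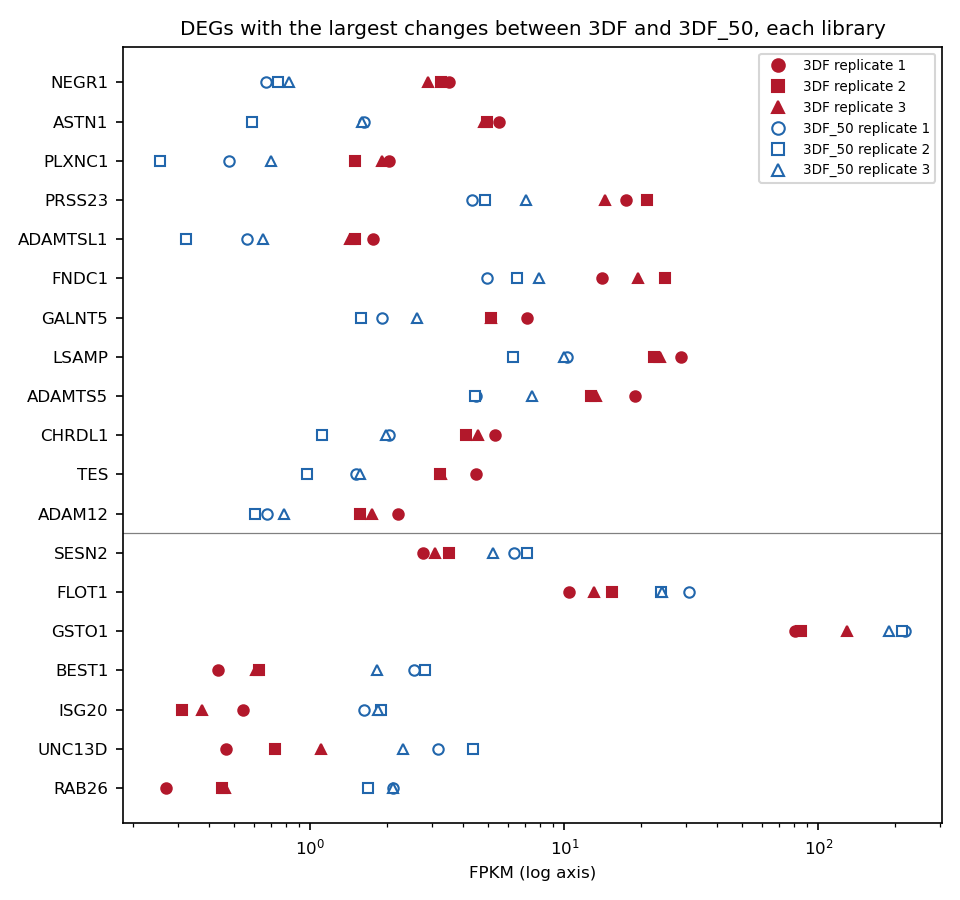
FPKM on a log axis in each of the 6 libraries for the 19 DEGs with a symbol, at least 1 FPKM on average and the largest changes, sorted by log2 fold change, with 12 higher in 3DF above the grey line and 7 lower below it. Filled red symbols are 3DF, open blue symbols are 3DF_50, and the symbol shape gives the replicate number. For NEGR1 the 3DF libraries sit between 2.91 and 3.53 FPKM and the 3DF_50 libraries between 0.667 and 0.825 FPKM, and no gene shown has overlapping groups.

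Genes that encode or process the matrix formed the next block of higher genes. COL4A4, a chain of the basement membrane collagen (chromosome 7, 168760952 to 168944185), had 43.2, 39.5 and 35.8 FPKM in 3DF and 18.7, 14.1 and 19.1 FPKM in 3DF_50, a log2 fold change of 1.17 ± 0.15 (adjusted p = 0.0317 by edgeR). Its neighbor COL4A3, encoding a chain that assembles with it, passed the adjusted p just below the fold limit, at 0.94 (edgeR adjusted p = 0.0317). The more widely expressed chains COL4A1 and COL4A2 were near 1 FPKM or below, with log2 fold changes of -0.13 (edgeR adjusted p = 0.841) and -0.54 (edgeR adjusted p = 0.435). LAMA2, a laminin alpha chain, had 3.10 to 3.37 FPKM in 3DF and 0.963 to 1.78 FPKM in 3DF_50. NID1, nidogen, which links laminin to type IV collagen (chromosome 16, 32162318 to 32237730), had 83.7, 62.8 and 65.2 FPKM against 33.6, 25.7 and 36.2 FPKM, a log2 fold change of 1.12 ± 0.17 (adjusted p = 0.0317 by edgeR). A second gene model described as nidogen-1, LOC103347221 on scaffold Un1217, was a DEG as well, at 77.6 to 78.8 FPKM against 29.0 to 40.2 FPKM, and because reads may be split between such copies the level of each is uncertain. In all, 3 of the 21 tested basement membrane genes were DEGs, each higher in 3DF, as were 0.316% of all genes tested. The same share stands beside the higher DEGs counted in the lists below. The basement membrane list had a median log2 fold change of 0.51. With the prefix as a block the median was 0.32 and 0 of the 21 were DEGs, and 0 were also called among other collagens, proteases, integrins, cadherins, Wnt genes, the TGF-beta and BMP pathway, growth factors, interferon response and exocytosis. NPNT, nephronectin, a ligand of integrins, missed the limit at 1.09 (edgeR adjusted p = 0.0522).

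COL14A1, a collagen that coats fibrils (chromosome 3, 135955143 to 136207123), had 160.0, 146 and 144 FPKM in 3DF and 66.2, 47.3 and 81.7 FPKM in 3DF_50. It was the DEG among the 16 nonfibrillar collagens outside the basement membrane, with a log2 fold change of 1.18 ± 0.19 (adjusted p = 0.0393 by edgeR). COL12A1, a related fibril-associated collagen, had 611 to 685 FPKM against 340.2 to 446 FPKM, at 0.73 (edgeR adjusted p = 0.0827). None of the 10 fibrillar collagens was a DEG by edgeR, where 6 had an unadjusted p under 0.05 and DESeq2 called 1. COL11A1 passed the adjusted p but not the fold limit. It had 58.2, 51.6 and 53.6 FPKM in 3DF and 32.7, 31.7 and 31.9 FPKM in 3DF_50, a log2 fold change of 0.74 ± 0.12 (adjusted p = 0.0345 by edgeR), and its 3DF_50 values varied by little. COL1A1 and COL1A2, the chains of type I collagen, also lay higher without overlap. For COL1A1 the libraries had 6092, 5733 and 7304 FPKM against 3868, 3347 and 3481 FPKM, a log2 fold change of 0.81 ± 0.18 (adjusted p = 0.0824 by edgeR), and for COL1A2 it was 0.98 ± 0.19 (adjusted p = 0.0636 by edgeR). COL3A1 was at 0.113 to 0.449 FPKM over both groups.

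**Figure D2:**
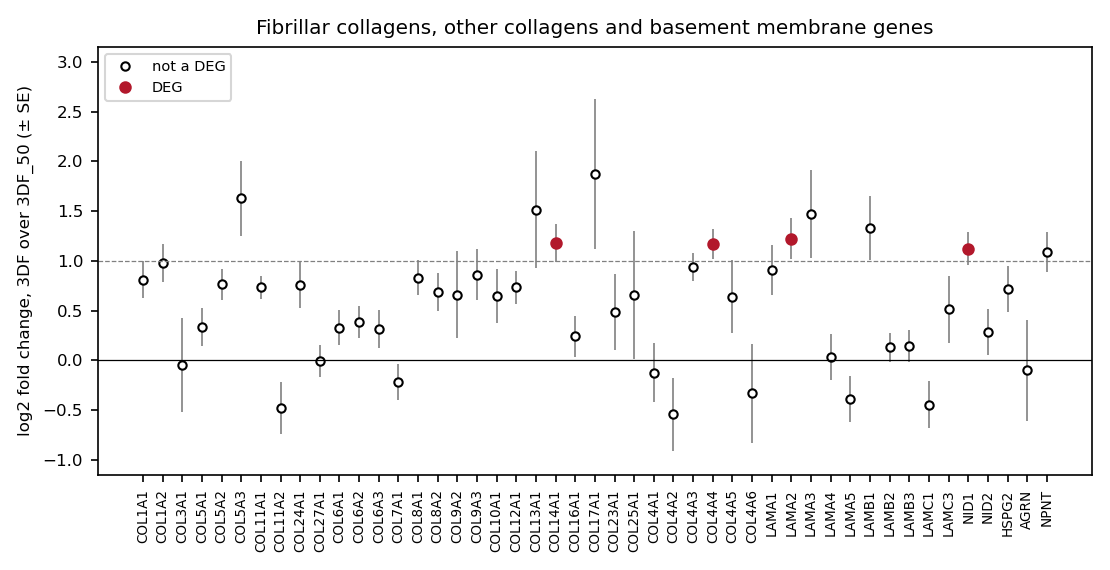
Log2 fold change of 3DF over 3DF_50 with its SE for every tested member of the lists of fibrillar collagens (10 genes, left), other collagens (16 genes, middle) and basement membrane (21 genes, right), 3 libraries per group. Filled red points are DEGs, open points are other genes, and the dashed line is the fold limit of 1. COL14A1 (1.18), COL4A4 (1.17), LAMA2 (1.22) and NID1 (1.12) are the DEGs, and several open points lie above the line with wider errors.

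Several proteases of the extracellular matrix were higher as well. ADAMTS5, an aggrecan-cleaving protease (chromosome 14, 156126088 to 156177584), had 18.9, 12.7 and 13.4 FPKM in 3DF and 4.50, 4.44 and 7.45 FPKM in 3DF_50, a log2 fold change of 1.43 ± 0.23 (adjusted p = 0.0361 by edgeR). MMP16, a membrane-bound metalloproteinase, had 1.74 to 2.35 FPKM against 0.763 to 0.888 FPKM, and ADAMTS12 had 2.11 to 3.48 FPKM against 0.972 to 1.30 FPKM. These 3 were the DEGs among 32 tested genes of matrix proteases and inhibitors, whose median log2 fold change was 0.41. Outside that list, ADAM12, a membrane-anchored metalloprotease, had a log2 fold change of 1.39 ± 0.20 (adjusted p = 0.0317 by edgeR), ADAMTSL1, a relative of these proteases without catalytic activity, one of 1.59 ± 0.25 (adjusted p = 0.0317 by edgeR), and PRSS23, a secreted serine protease, one of 1.67 ± 0.21 (adjusted p = 0.0317 by edgeR). PRSS23 (chromosome 1, 129896746 to 129907951) had 17.4, 21.1 and 14.4 FPKM against 4.34, 4.87 and 7.05 FPKM. FAP, the fibroblast activation protein, a cell-surface protease, is outside the naming rule and was looked up afterwards. It had 66.1 to 95.4 FPKM in 3DF and 30.1 to 41.4 FPKM in 3DF_50, at 1.05 (edgeR adjusted p = 0.0403).

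Among receptors and junctions the calls were few. ITGA2, the integrin chain that binds collagen together with beta1, had 9.83, 6.25 and 6.87 FPKM in 3DF and 3.34, 3.33 and 4.03 FPKM in 3DF_50, a log2 fold change of 1.07 ± 0.18 (adjusted p = 0.0401 by edgeR), and it was 1 DEG of 23 integrins and other matrix receptors. Its partner ITGB1 had 153 to 170.1 FPKM against 129 to 137 FPKM, at 0.25 (edgeR adjusted p = 0.278). PCDH7 and FAT4, members of the cadherin superfamily, were DEGs among 22 tested, with log2 fold changes of 1.21 ± 0.18 and 1.03 ± 0.16 (both at an adjusted p of 0.0317 by edgeR). FAT4 was even within each group, at 3.00, 2.98 and 2.80 FPKM against 1.28, 1.21 and 1.74 FPKM. CDH11, the main cadherin of fibroblastic cells, had 96.1 to 100.5 FPKM against 57.0 to 77.8 FPKM, at 0.46 (edgeR adjusted p = 0.142). Of 17 gap and tight junction genes 0 were DEGs by edgeR or DESeq2, with 7 at an unadjusted p under 0.05, and GJA1, connexin 43, had 249 to 349 FPKM against 177 to 212 FPKM (edgeR adjusted p = 0.134). ALCAM, an adhesion protein on the marker list for corneal endothelium, was a DEG at 1.08 ± 0.17 (adjusted p = 0.0366 by edgeR).

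Secreted regulators were among the higher genes too. GDNF, a neurotrophic factor (chromosome 11, 58820136 to 58824046), had 4.87, 4.56 and 4.18 FPKM in 3DF and 1.85, 1.63 and 2.12 FPKM in 3DF_50, a log2 fold change of 1.25 ± 0.16 (adjusted p = 0.0317 by edgeR), and was the DEG among 47 growth factors and receptors. CHRDL1, an extracellular antagonist of BMPs (chromosome X, 59098884 to 59219505), had 5.35, 4.11 and 4.58 FPKM against 2.04, 1.11 and 1.99 FPKM, and BMP3, a ligand that opposes other BMPs, had 32.8, 22.7 and 22.8 FPKM against 12.2, 9.55 and 12.5 FPKM. These were 2 of 38 genes of the TGF-beta and BMP pathway, with log2 fold changes of 1.42 ± 0.25 (adjusted p = 0.0445 by edgeR) and 1.16 ± 0.18 (adjusted p = 0.0317 by edgeR). TGFB2, a ligand of that pathway and a target of YAP and TAZ, had 30.2 to 40.4 FPKM against 17.3 to 20.4 FPKM, at 0.87 (edgeR adjusted p = 0.0369), below the fold limit. DKK2, a secreted modulator of Wnt signals and the most abundant of these regulators (chromosome 15, 42513162 to 42625993), had 247, 181 and 180.1 FPKM in 3DF and 100.1, 77.7 and 114 FPKM in 3DF_50, at 1.03 ± 0.18 (adjusted p = 0.0445 by edgeR), and it was 1 DEG of 31 Wnt genes. STC2, a secreted glycoprotein induced by stress, had 6.10, 6.28 and 5.53 FPKM against 2.92, 1.62 and 2.89 FPKM. FNDC1, a fibronectin type III protein (chromosome 12, 149161039 to 149219050), had 14.1, 24.96 and 19.5 FPKM against 4.97, 6.48 and 7.96 FPKM, and GALNT5, an enzyme that starts O-linked glycans, had 5.12 to 7.14 FPKM against 1.58 to 2.63 FPKM. TES, testin, a focal adhesion protein, had a log2 fold change of 1.42 ± 0.24 (adjusted p = 0.0401 by edgeR).

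The genes lower in 3DF came from several functional classes. RAB26, a small GTPase of secretory vesicles, had 0.270, 0.449 and 0.461 FPKM in 3DF and 2.11, 1.69 and 2.11 FPKM in 3DF_50, a log2 fold change of -2.35 ± 0.35 (adjusted p = 0.0317 by edgeR). UNC13D, which primes granules for release, had 0.463, 0.727 and 1.10 FPKM against 3.18, 4.38 and 2.31 FPKM, at -2.14 ± 0.39 (adjusted p = 0.0471 by edgeR). They were 2 of 19 genes of vesicle exocytosis, a list with a median of 0.046, where 0.135% of all genes tested were lower DEGs. The deposited models of both are short, running from 808 to 4126 on scaffold Un0914 for RAB26 and from 6 to 2230 on scaffold Un0147 for UNC13D. ISG20, an interferon-induced exonuclease (scaffold Un1157, 3969 to 10853), had 0.544, 0.312 and 0.373 FPKM against 1.63, 1.90 and 1.84 FPKM, and was the one DEG of 32 interferon response genes, whose median was 0.30 in the opposite direction. AEN, an exonuclease of the p53 response, lies next to it on that scaffold (904 to 2208) and had 26.5, 35.2 and 28.1 FPKM against 53.8, 59.0 and 49.5 FPKM, at -0.88 ± 0.15 (adjusted p = 0.0403 by edgeR). BEST1, a chloride channel, had 0.433, 0.628 and 0.611 FPKM against 2.57, 2.82 and 1.83 FPKM. The lower gene with the smallest p of all, LOC103350987 (chromosome 16, 64831289 to 64846754), carries no description in the table and was named after its values were seen. It had 0.682, 1.29 and 1.12 FPKM in 3DF and 5.44, 5.40 and 5.39 FPKM in 3DF_50, a log2 fold change of -2.42 ± 0.21 (adjusted p = 0.00901 by edgeR).

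Of the lower genes with a symbol, 3 that were more abundant had a log2 fold change close to the limit. GSTO1, a glutathione transferase (chromosome 18, 52184928 to 52198678), had 80.9, 85.5 and 130.1 FPKM in 3DF and 219, 214 and 190.5 FPKM in 3DF_50, at -1.10 ± 0.18 (adjusted p = 0.0393 by edgeR). FLOT1, a scaffold protein of membrane rafts, had 10.5, 15.4 and 13.1 FPKM against 30.8, 24.0 and 24.2 FPKM, at -1.05 ± 0.17 (adjusted p = 0.0393 by edgeR). SESN2, sestrin, which restrains mTORC1 when amino acids are short, had 2.77, 3.52 and 3.09 FPKM against 6.35, 7.10 and 5.22 FPKM, at -1.02 ± 0.17 (adjusted p = 0.0393 by edgeR). In these 3 genes the highest 3DF library lay below the lowest 3DF_50 library. LOC103349801, described as a subunit of cytochrome c oxidase, was more abundant than SESN2, with 5.57, 7.18 and 4.26 FPKM in 3DF and 17.9, 17.4 and 13.8 FPKM in 3DF_50, and lay further from the limit, at -1.55 ± 0.24 (adjusted p = 0.0317 by edgeR). With STC2, which rose, SESN2 made up the 2 DEGs of 32 genes of amino acid stress and the unfolded protein response.

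Position and annotation differed between the lower and the higher genes. Of the 18 lower genes 10 lay on unplaced scaffolds and 7 had no symbol, against 4 and 3 of the 42 higher genes. Of all genes tested 28.3% lay on such scaffolds, and 15408 of the 23428 genes counted, tested or not, had a symbol. The median genomic span from the start to the end of the gene was 109703 bases for the higher genes, 10964 bases for the lower genes and 22288 bases for all genes tested. These spans moved with the fold change across the whole table. In 5 equal groups of genes from the shortest to the longest span the median log2 fold change was -0.10, -0.087, -0.029, 0.069 and 0.19, with Spearman's rho 0.30 over 13285 genes, which share libraries and are not independent. The group with the longest spans held 25 of the 42 higher genes and 0 of the 18 lower genes. 3DF replicate 1 departed most from the other libraries in this respect, with a median deviation from the gene mean of -0.19 for the shortest and 0.20 for the longest spans, and without it the rho was 0.163. When a smooth trend on span was taken out before the test, an alternative chosen after the data were seen, 36 DEGs remained, 21 higher and 15 lower, of which 33 were among the 60. NEGR1, ASTN1, PLXNC1, LSAMP, PRSS23, FNDC1, ADAMTS5, GDNF and BMP3 stayed DEGs, while COL14A1, COL4A4, LAMA2, NID1, ITGA2, MMP16, PCDH7, FAT4 and DKK2 did not, with log2 fold changes of 0.84 to 1.00. In that fit the median of the neural adhesion and axon guidance list was 0.11, beside 0.29 with the trend left in. For basement membrane genes it was 0.40 beside 0.51, and for fibrillar collagens 0.49 beside 0.75. The part of gene span in these calls and medians beyond that fit was not tested.

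**Figure D3:**
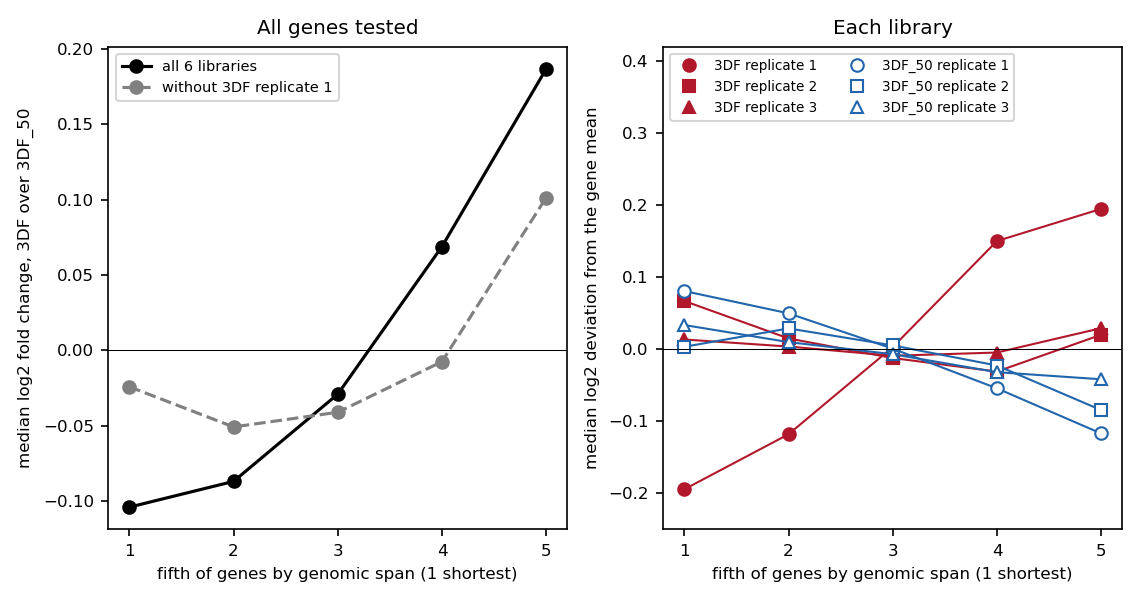
Left, median log2 fold change of 3DF over 3DF_50 in 5 equal groups of genes by genomic span, with all 6 libraries (black) and without 3DF replicate 1 (grey, dashed). Right, median log2 deviation of each library from the mean over the 6 libraries in the same groups, red for 3DF and blue for 3DF_50. The black line climbs from -0.10 to 0.19, and 3DF replicate 1 runs from -0.19 to 0.20 while the other libraries stay closer to 0.

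The scaling changed the split of the calls. By library size alone, without TMM, the median over all genes shifted from 0.013 to -0.15, and 24 higher and 29 lower genes were called in place of 42 and 18. Of the 60 DEGs 42 were still called. LAMA2, NID1, ITGA2, FAT4 and DKK2 were among those lost. The TMM factors were 0.912 to 0.957 in 3DF and 1.048 to 1.083 in 3DF_50, and the 10 genes with the most reads took 16.5% to 19.5% of the reads in 3DF against 12.6% to 13.8% in 3DF_50.

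How far single libraries carried the changes was read from 6 further fits, each without 1 library. In all of them each of the 60 genes kept its direction and had an unadjusted p under 0.01 by edgeR, the highest being 0.00182. The 60 were picked from these same libraries and did not overlap between the groups. A kept direction, a low p and a fold change that moves little are therefore no independent check. The fold changes of the 60 moved little. The median ratio of a gene's log2 fold change to that from all 6 libraries was 0.938 without 3DF replicate 1, 1.039 and 1.041 without replicates 2 and 3 of 3DF, and 1.015, 0.920 and 1.075 without replicates 1, 2 and 3 of 3DF_50. Of the 60, 43 stayed at or beyond the fold limit in every fit, 28 higher and 15 lower. NEGR1 ranged from 2.01 to 2.16, GDNF from 1.16 to 1.34 and PROS1, the anticoagulant protein S, from 0.91 to 1.16, and among DEGs with a symbol these 3 departed least from their value with all 6 libraries. The largest departures were in PLXNC1 (1.60 to 2.27), UNC13D (-2.49 to -1.87) and TYRP1, a melanocyte enzyme, whose range of 3.75 to 7.99 came from 3DF_50 libraries at 0, 0 and 0.0810 FPKM.

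The number of calls varied widely with the library left out, while the fold changes of the 60 moved little. Such ratios were not taken over all genes tested, so the 60 do not stand for other genes. edgeR called 77 DEGs (0.571% of the genes tested there) without 3DF replicate 1, 74 (0.549%) without 3DF replicate 2 and 61 (0.447%) without 3DF_50 replicate 3, of which 47, 49 and 29 were among the 60. It called 4 (0.0296%) without 3DF replicate 3 and 0 without 3DF_50 replicate 1 or 2. In the fits with 0 calls the lowest adjusted p was 0.0561 and 0.0542, just above the limit, with 1847 and 1491 genes at an unadjusted p under 0.05. DESeq2 on the same libraries called 172 (0.918%) and 81 (0.432%), including 56 and 47 of the 60, and over all 6 such fits it called 81 to 253 (1.35%). With all 6 libraries DESeq2 called 202 (1.07%). No gene was called by edgeR in more than 4 of the 6 fits. NEGR1, PRSS23 and LOC103350987 reached 4, another 23 genes reached 3, among them COL14A1, COL4A4, LAMA2, ADAMTS5, LSAMP, GDNF and ISG20, 15 genes reached 2 and 18 reached 1, among them NID1, ITGA2, DKK2, BMP3 and GSTO1. CHRND, an acetylcholine receptor subunit at 0.0407 to 0.0674 FPKM in 3DF and 0.294 to 0.347 FPKM in 3DF_50, was called with all 6 libraries and in none of the 6 edgeR fits without 1.

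**Figure D4:**
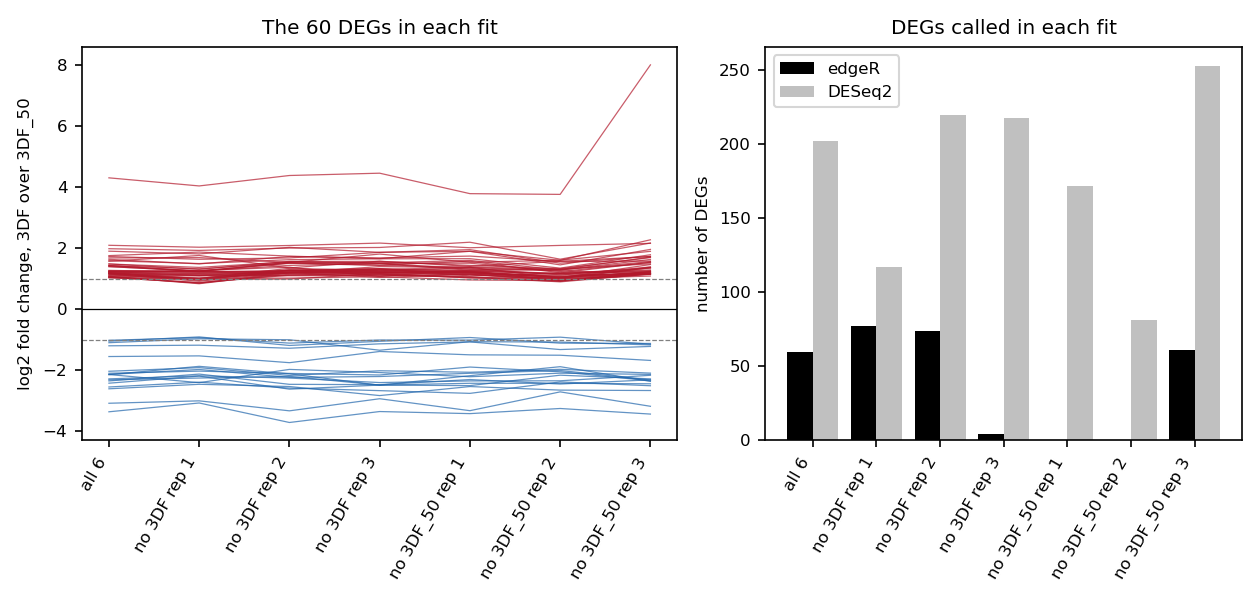
Left, log2 fold change of 3DF over 3DF_50 for each of the 60 DEGs (red higher, blue lower, one line per gene) with all 6 libraries and without each library in turn, dashed lines at 1 and -1. Right, number of DEGs called by edgeR (black) and DESeq2 (grey) in the same fits. The lines on the left run nearly level except TYRP1, while the edgeR bars on the right range from 0 to 77 and the DESeq2 bars from 81 to 253.

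The library that stood lowest or highest was often the same. Of the 42 higher genes 35 had their lowest value in 3DF_50 replicate 2 and 35 had their highest in 3DF replicate 1, and 13 of the 18 lower genes had their lowest value in 3DF replicate 1. On the first principal component over all genes, 3DF_50 replicate 2 and 3DF replicate 1 also lay at the ends, at -19.6 and 39.5. The counts were not made over all genes tested, so no trait particular to the 60 can be read from them. Within the E7 libraries, 1 of each density, the direction was the same for all 60 genes. Because the groups did not overlap for any of the 60, every pair of libraries across the densities had to show this direction. The median log2 ratio of FPKM there was 0.98 for the higher genes, with a lowest value of 0.63, and -1.86 for the lower genes, with a highest value of -0.57. At this single pair 20 of the 42 higher genes and 15 of the 18 lower genes reached 1 in size, and no test was possible. In NEGR1 this ratio was 1.98, in PRSS23 1.58 and in COL14A1 0.84.

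Some genes that edgeR did not call with all 6 libraries became DEGs when 1 library was left out. Without 3DF_50 replicate 3 they included the epithelial keratins. KRT12, the keratin of the corneal epithelium, had 2.47, 4.40 and 3.72 FPKM in 3DF and 0, 0 and 2.13 FPKM in 3DF_50, and KRT5, a basal keratin, had 3.54, 6.19 and 3.57 FPKM against 0.0135, 0.116 and 2.02 FPKM. KRT17 followed the same order, with 2.71 to 4.49 FPKM in 3DF and 0, 0.140 and 2.22 FPKM in 3DF_50. With all 6 libraries their edgeR adjusted p was 0.246, 0.171 and 0.24, and each was higher in the E7 library of 3DF_50 than in the other 3DF_50 libraries. Without 3DF replicate 1 the added DEGs included BRINP2 and EDN1. BRINP2, a neural protein, had 26.8, 34.2 and 26.3 FPKM in 3DF and 9.68, 2.49 and 9.48 FPKM in 3DF_50. EDN1, endothelin, had 1.52, 3.91 and 1.46 FPKM against 0.734, 0.349 and 0.329 FPKM. Without replicate 2 of 3DF they included SEMA3D, a semaphorin, at 5.03 to 9.46 FPKM against 1.59 to 3.16 FPKM, and OTOR. IL18R1, a receptor of interleukin-18, at 3.19 to 8.80 FPKM against 1.13 to 1.96 FPKM, was added in both of these fits. These 5 genes, unlike the keratins, were DEGs in DESeq2 with all 6 libraries.

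Single libraries also differed from the other 5 in genes that were no DEGs. In 3DF replicate 2 SOCS3, a cytokine feedback inhibitor, had 37.4 FPKM against 8.98 to 14.1 FPKM elsewhere. SNRPF, a spliceosome protein, was at 4.20 FPKM in 3DF replicate 1 and at 16.2 to 22.8 FPKM elsewhere. The ribosomal RNA gene RN18S had 78.0 FPKM in that library and 286 to 3336 FPKM in the others. CBR1, a carbonyl reductase, was at 0.116 FPKM in 3DF replicate 3 against 1.21 to 2.91 FPKM, and TNFAIP6, a hyaluronan-binding protein, at 0.726 FPKM in 3DF_50 replicate 1 against 2.57 to 4.12 FPKM. In 3DF_50 replicate 3 KITLG, a growth factor for KIT, had 12.9 FPKM against 5.27 to 7.42 FPKM, and MMP1, interstitial collagenase, had 3.08 FPKM against 0.174 to 1.52 FPKM. RPL39_chrX, a ribosomal gene model, was at 23.1 FPKM in 3DF_50 replicate 2 against 49.6 to 89.2 FPKM, LECT1, a cartilage glycoprotein, at 3.30 FPKM in 3DF_50 replicate 1 against 0.603 to 1.24 FPKM, and C3H8orf59 at 10.4 FPKM in 3DF replicate 3 against 17.5 to 28.8 FPKM. Such values turned the sign of some fold changes when the library was left out.

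Of the 10 tested markers of the keratocyte 0 were DEGs by edgeR, and DESeq2 called 2. Their fold changes lay in both directions. KERA, keratocan, had 4555, 2756 and 2706 FPKM in 3DF and 1820, 1507 and 1966 FPKM in 3DF_50, a log2 fold change of 0.89 ± 0.23 (adjusted p = 0.102 by edgeR), and LUM, lumican, had 9175 to 12432 FPKM against 5272 to 6820 FPKM, at 0.70 (edgeR adjusted p = 0.117). For OGN, mimecan, the value of 1.00 (edgeR adjusted p = 0.138) went down to 0.52 without 3DF replicate 1, which had 11823 FPKM where the other 3DF libraries had 5556 and 5169 FPKM. DCN, decorin, was at 0.27 (edgeR adjusted p = 0.445). AQP1, a water channel and also on the marker list, was lower at 100k, with 445, 791 and 613 FPKM in 3DF and 1172, 1612 and 1324 FPKM in 3DF_50, at -1.18 ± 0.22 (adjusted p = 0.0566 by edgeR). The corneal crystallins did not follow the proteoglycans in direction. ALDH1A1 had 668, 697 and 699 FPKM in 3DF and 874, 843 and 902 FPKM in 3DF_50, at -0.37 ± 0.13 (adjusted p = 0.175 by edgeR), and TKT had overlapping groups and a value near 0 whose sign varied with the method (edgeR adjusted p = 0.998). None of the 36 tested proteoglycans and glycoproteins of the matrix was a DEG by edgeR, where 15 had an unadjusted p under 0.05 and DESeq2 called 4. SPON1, an adhesion glycoprotein, came closest, with 10.2, 12.3 and 10.97 FPKM against 3.90, 2.81 and 6.24 FPKM and an edgeR adjusted p of 0.0522.

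**Figure D5:**
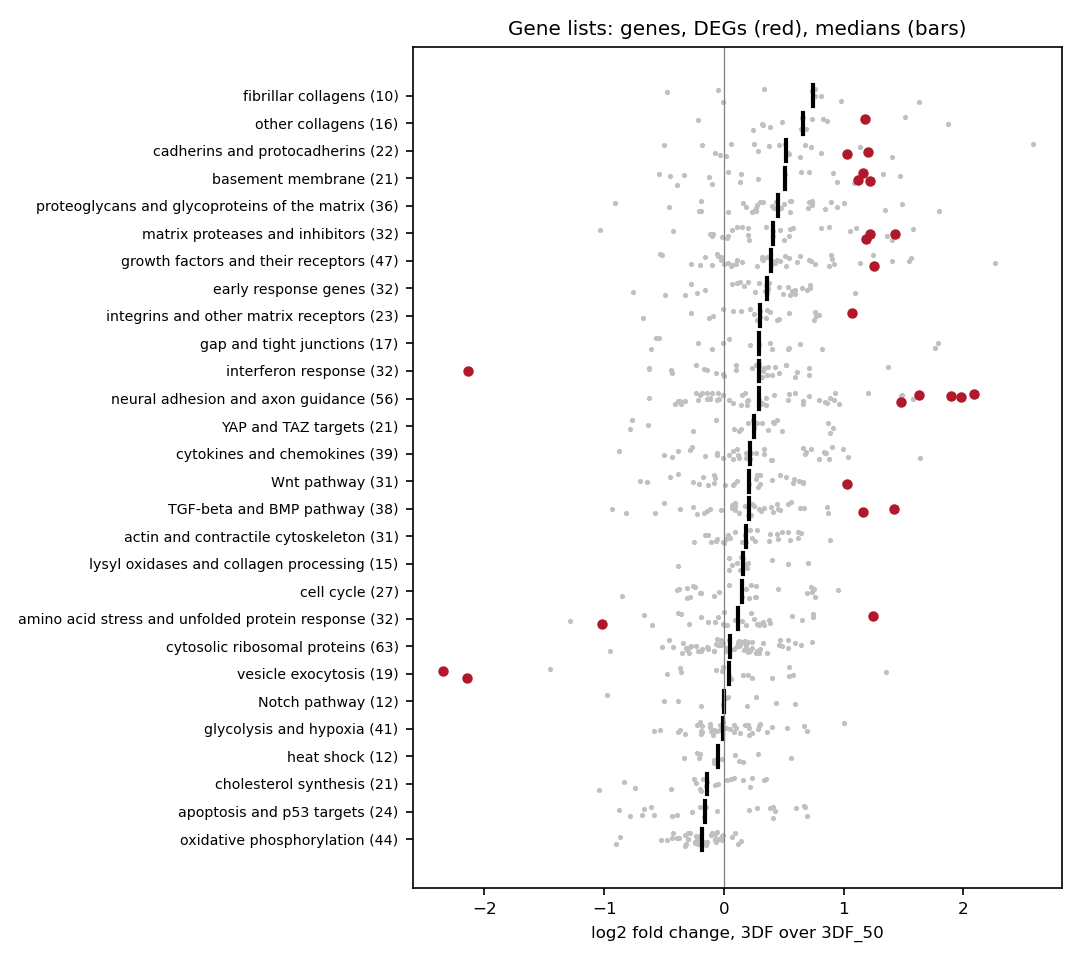
Log2 fold change of 3DF over 3DF_50 for the tested members of 28 gene lists, with the number of tested members in parentheses, sorted by their median. Grey points are genes, red points are DEGs and black bars are medians, and vertical scatter within a row has no meaning. The matrix and adhesion lists lie at the top, with medians of 0.75 for fibrillar collagens and 0.66 for other collagens, and oxidative phosphorylation lies at the bottom at -0.18.

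Some of the 60 genes also differed between conditions in 2D, where 23 of the 56 tested were DEGs. Keratocytes on top of a fibrillar matrix (2DF) and on a collagen-coated dish (2DC) share no library with 3DF or 3DF_50, although some prefixes recur. Prefix E6 occurs in 3DF and 2DC, E5 in 3DF_50 and 2DF, and E3 in 3DF_50 and 2DC. A difference by prefix can therefore not be told apart in the overlap given here, and its part was not tested. Of the 42 genes higher at 100k, 41 were tested in 2DF vs. 2DC, and 17 of them (41.5%) were DEGs lower in 2DF, where 2.93% of all genes were, and 1, PRSS23, was higher, where 2.04% were. The 17 included COL14A1, COL4A4, NID1, ADAMTS5, NEGR1, LSAMP and PLXNC1. Of the 18 lower genes 15 were tested, and 5 were higher in 2DF, namely LOC103350987, BEST1, DNAH1, ISG20 and MUC6, while 0 were lower in edgeR. Mean levels of NEGR1 were 10.1 FPKM in 2DC and 3.56 FPKM in 2DF, beside 3.24 FPKM in 3DF and 0.745 FPKM in 3DF_50. For ISG20 they were 0.128, 1.31, 0.410 and 1.79 FPKM in the same order.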

How the data were processed

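Bulk RNA-seq of 6 libraries, 3 of 3DF and 3 of 3DF_50, was analysed, with 2DC and 2DF used for context. The authors' deposited counts are whole reads per gene, from reads aligned to oryCun2 with HISAT2 and counted with featureCounts, per the paper. The deposited FPKM values were made by the authors from these counts, gene length and a library size that was 1.035 to 1.08 times the counted reads in 3DF and 1.19 to 1.24 times in 3DF_50. Whether counting used strand is not given in the sources used here.

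Groups were taken from the labels. Counts were tested with the quasi-likelihood F test of edgeR 4.0.16 (R 4.3.3), two-sided, on the 6 libraries only and without covariates, after filterByExpr at a minimum count of 10 and TMM scaling, and p was adjusted by Benjamini-Hochberg over the 13285 genes tested of 23428. The log2 fold change is 3DF over 3DF_50, and the SE was taken as |log2 fold change| over the root of the F statistic. Replicates differed by more than counting noise. The script was tested on simulated data. DESeq2 1.42.0, limma 3.58.1, voom weights, other filters and scalings, blocks and each library left out were alternatives. The span trend and DESeq2 without each library were added after the data were seen. Where a library is left out, 2 libraries stand for its group.

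Genes named are the 12 highest and up to 8 lowest DEGs that carry a symbol, average 1 FPKM or more and have no overlap, DEGs of the gene lists, the member with the smallest p of lists without one, cell type markers, the 3 DEGs most and the 3 least moved by leaving out a library, the 3 largest DEGs added by such a fit, and for each library the 2 genes farthest from the other libraries, of which 1 is not reported here. Other genes (AEN, AQP1, CDH11, CHRND, COL1A2, COL3A1, COL4A1, COL4A2, COL4A3, COL12A1, DNAH1, FAP, GJA1, ITGB1, KDR, MUC6, NPNT, NT5E, ROBO1 and the LOC models) were chosen after their values were seen. The comparison, the gene lists and the names were chosen with earlier results of these data known. Summaries and figures used numpy 2.4.6, pandas 2.3.3, matplotlib 3.10.9 and Python 3.11.15.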

Additional observations from a re-analysis of the deposited data

How the results depend on the processing

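Leaving out 1 library gave 0 to 77 DEGs with edgeR (0 to 59 higher, 0 to 18 lower) and 35.3% to 45.0% for the share between groups. With DESeq2 the same fits gave 117 (89 higher, 28 lower), 220 (145, 75) and 218 (164, 54) without 3DF replicates 1, 2 and 3, and 172 (135, 37), 81 (62, 19) and 253 (217, 36) without 3DF_50 replicates 1, 2 and 3. With all libraries, DESeq2 called 202 DEGs (142 higher, 60 lower), edgeR with no filter 155 (118, 37), a fit of all 5 conditions 196 (138, 58), voom with sample weights 178 (106, 72), and an adjusted p of at most 0.1 gave 161 (114, 47). Fewer came from limma on log2(FPKM + 1), with 6 (4, 2), on log2(FPKM + 0.1), with 16 (7, 9), from removing the span trend, with 36 (21 higher), and from blocking the prefix in a fit of all 5 conditions, with 10 (8, 2), 6 of them among the 60. Library size alone gave 24 higher and 29 lower. The causes were not tested.

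The replicate number as a block gave 86 DEGs (62 higher, 24 lower), 55 of them among the 60. Libraries with the same number had correlations of deviations of -0.057, -0.11 and -0.076, so the number did not pair them. The E7 libraries, 3DF replicate 2 and 3DF_50 replicate 3, had 0.11, the highest of the pairs across the groups.

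Signs turned in genes that were no DEGs. TKT was at 0.0029 in DESeq2, 0.011 without a filter, 0.022 with all 5 conditions and with the span trend removed, 0.028 with the length trend removed, 0.069 with the prefix block, 0.067 with voom and 0.021 in both limma fits. RPL39_chrX was at -0.33 with the prefix block, and MMP1 at 0.16 with the replicate block, 0.49 with voom and 0.27 with limma on log2(FPKM + 0.1). Without 1 library, edgeR gave -0.063 to 0.087 for TKT, -1.07 to 0.29 for LECT1, -0.062 to 0.86 for RPL39_chrX, -0.52 to 0.16 for KITLG and -0.93 to 1.40 for MMP1. DESeq2 in the same fits turned TKT (0.090 without 3DF replicate 1, 0.044 without 3DF_50 replicate 1), LECT1 (0.30), RPL39_chrX (-0.057), KITLG (0.18) and MMP1 (1.44).

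With 3 libraries per group the smallest p of an exact permutation test is 0.1. Genes under 1 FPKM rest on few reads, and every 3DF library was deeper than every 3DF_50 library.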

Other observations

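The remaining gene lists held few or no DEGs, and their members are given here by counts. Oxidative phosphorylation was the list in which no member lay higher without overlap between the groups and 13 of 44 lay lower, where 16.8% and 12.6% of all genes tested did so. Its median log2 fold change was -0.18, or -0.34 with library size alone and -0.14 without 3DF replicate 1, and ATP5L, a subunit of ATP synthase, had the smallest p, with 60.3 to 72.8 FPKM in 3DF and 81.1 to 93.2 FPKM in 3DF_50 (edgeR adjusted p = 0.135). Only 69.2% of that list was found in the table. Among 24 genes of apoptosis and the p53 response 4 lay higher and 7 lower without overlap, with a median of -0.16, and among 21 genes of cholesterol synthesis 3 and 4, with a median of -0.14. SREBF1, a transcription factor of lipid synthesis, had 7.30, 12.4 and 17.2 FPKM in 3DF and 20.8, 27.0 and 26.9 FPKM in 3DF_50 (edgeR adjusted p = 0.0997).

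For the targets of YAP and TAZ, 12 of 21 lay higher and 3 lower without overlap. Of all genes tested 16.8% and 12.6% did so, which also applies to the lists below. TGFB2 and NT5E passed the adjusted p below the fold limit. The median of the list was 0.25, or 0.074 with the span trend removed. With library size alone it was 0.090, where the median of all genes was -0.15. NT5E, the ecto-enzyme CD73, had 7.91 to 9.04 FPKM against 3.78 to 5.29 FPKM. Of 32 early response genes 5 lay higher and 1 lower, with a median of 0.36, which was 0.20 with library size alone. SPRY2, a feedback inhibitor of growth factor signals, had 33.4 to 36.9 FPKM against 24.1 to 25.6 FPKM (edgeR adjusted p = 0.0906). Actin and contractile genes had 10 higher and 2 lower of 31 and a median of 0.19, which was 0.037 with library size alone. TPM1, a tropomyosin, was at 87.9 to 104 FPKM against 63.6 to 68.1 FPKM (edgeR adjusted p = 0.0772). In the list of cytokines and chemokines 12 of 39 were higher and 3 lower, with a median of 0.22, which was 0.059 with library size alone. IL6ST, the shared receptor of the IL-6 family, had 43.0 to 67.6 FPKM against 24.98 to 31.2 FPKM (edgeR adjusted p = 0.0906). Cell cycle genes showed 9 higher and 2 lower of 27 and a median of 0.15, which was -0.0054 with library size alone and -0.13 with the prefix as a block, and CDK6 had 3.51 to 4.08 FPKM against 1.92 to 2.76 FPKM (edgeR adjusted p = 0.0827). Collagen processing genes had 4 higher of 15 and a median of 0.16, which was -0.0014 with library size alone. The medians of glycolysis and hypoxia (-0.0031), heat shock (-0.050), Notch (0.0054, with 75.9% of the list in the table) and cytosolic ribosomal genes (0.055) were within 0.1 of the median of all genes, 0.013.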
